A study of Mus musculus with 12 samples.

Results

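The core of the NRF2 antioxidant pathway was followed through Nfe2l2, the gene of NRF2, its inhibitor gene Keap1 and 8 target genes, Gclc, Gclm, Gsr, Txnrd1, Srxn1, Prdx1, G6pdx and Nqo1, taken by their symbols. They are 10 of the 24062 genes in the count files, and all 10 were measured and tested in every comparison. RNA was sequenced from liver and gastrocnemius, a calf muscle, of 6 female C57BL/6N mice on chow. The R135W group has 3 mice homozygous for the R135W missense variant of Mars2, the gene for the mitochondrial methionyl-tRNA synthetase, aged 9.0 weeks (animal 5), 7.4 weeks (animal 7) and 8.6 weeks (animal 12). The WT group has 3 wild type mice aged 9.0 weeks (animals 6 and 8) and 7.4 weeks (animal 9). Each mouse gave a liver and a gastrocnemius library, so the 12 libraries fall into 4 groups of 3, liver R135W, liver WT, gastrocnemius R135W and gastrocnemius WT. The labels do not say whether the mice were littermates.

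NRF2 is the transcription factor that switches on antioxidant and detoxification genes, and KEAP1 is the adaptor that hands NRF2 to a CUL3 ubiquitin ligase for destruction. Oxidants and electrophiles modify cysteines of KEAP1, NRF2 escapes degradation, pairs with a small MAF protein and binds antioxidant response elements near its target genes. Liver is a classical site of this response, since it conjugates and exports electrophiles with glutathione. NRF2 itself is controlled mainly through its protein, so the RNA of Nfe2l2 and Keap1 does not report NRF2 activity directly.

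Of the 10 genes, 8 had a promoter window of 300 bases in the RefSeq table (GRCm38.p6), from 250 bases before to 50 bases after the annotated start; Gclc and Gsr were not matched. The core of the antioxidant response element, TGACNNNGC read on either strand, was found in the windows of 6 of these 8 genes, which have 10 windows as Txnrd1 has 3 starts, against 4071 of all 32851 promoter windows (12.4%). The stretches around the 6 matches are shown because they are the letters that NRF2's known binding motif shares with these genes. Each is printed on the gene's own strand with the match in capitals; in all but Nfe2l2 the core lies on the opposite strand, so the capitals show its reverse complement.
Nfe2l2 (chr2:75704870-75704913, minus strand): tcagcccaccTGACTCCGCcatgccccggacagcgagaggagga
Gclm (chr3:122245398-122245456, plus strand): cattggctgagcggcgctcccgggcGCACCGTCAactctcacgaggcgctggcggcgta
Txnrd1 (chr10:82859089-82859147, plus strand): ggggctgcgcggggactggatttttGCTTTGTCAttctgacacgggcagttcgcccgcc
Srxn1 (chr2:152105542-152105570, plus strand): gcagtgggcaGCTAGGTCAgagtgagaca
G6pdx (chrX:74428919-74428947, minus strand): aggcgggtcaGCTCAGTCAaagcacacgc
Prdx1 (chr4:116685441-116685499, plus strand): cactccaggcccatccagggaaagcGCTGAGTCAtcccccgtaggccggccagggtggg
Counted from the RefSeq start of its window, the core lies 240 bases before the start in Nfe2l2, 134 in Gclm and 133 in Prdx1. It lies 92 bases before in Txnrd1 and 57 in G6pdx, and after the start in Srxn1. The Txnrd1 match belongs to 1 of its 3 starts, with a window from 82858956, inside the gene that begins at 82833951. In the annotation used for counting, G6pdx reaches 74429161, so its stretch lies inside that gene and not before it. The Prdx1 match also contains TGACTCA, the motif of AP-1. Followed by a fixed A, the core was found in Txnrd1 among these genes and in 3.04% of all windows. A match describes letters in these windows and is not a measured binding site; the windows of Keap1 and Nqo1 do not hold these letters.

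Total counts ran from 20751583 to 30460237 per library, and levels are given as CPM, the usual counts per library size, scaled with TMM factors across all 12 libraries. Tissue labels fit the markers: 12 hepatocyte markers summed to 100200 to 109700 CPM in R135W liver and 117700 to 122700 CPM in WT liver, against 297 to 712 CPM in muscle, and 12 muscle fibre markers summed to 160400 to 204000 CPM in muscle, against 11.1 to 35.2 CPM in liver. Mars2 carries a missense change, so its RNA does not check the genotype labels; it averaged 2.88 ± 0.659 CPM in R135W and 2.71 ± 0.611 CPM in WT liver, and 9.67 ± 0.895 CPM in R135W and 11.9 ± 0.972 CPM in WT muscle (SD, n = 3 each). Where nothing else is said, a fold change is the log2 difference of R135W minus WT with its standard error (SE), a p is from edgeR's quasi-likelihood test, and an adjusted p under 0.05 over all tested genes is the threshold.

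The first comparison was R135W against WT liver. None of the 10 genes passed the test, against 3.28% of all 13935 genes tested. Srxn1, at a fold change of 0.62, and G6pdx, at 0.59, had an unadjusted p under 0.05, 2 of 10 genes against 17.6% of all genes; DESeq2 called Srxn1 and limma-voom called 0 of the 10. The median fold change of the 10 genes was 0.11, with 7 above 0 and 3 below, beside -0.01 over all tested genes. The R135W and WT livers did not overlap for 4 of the 10 genes, against 23.7% of all genes.

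**Figure D1:**
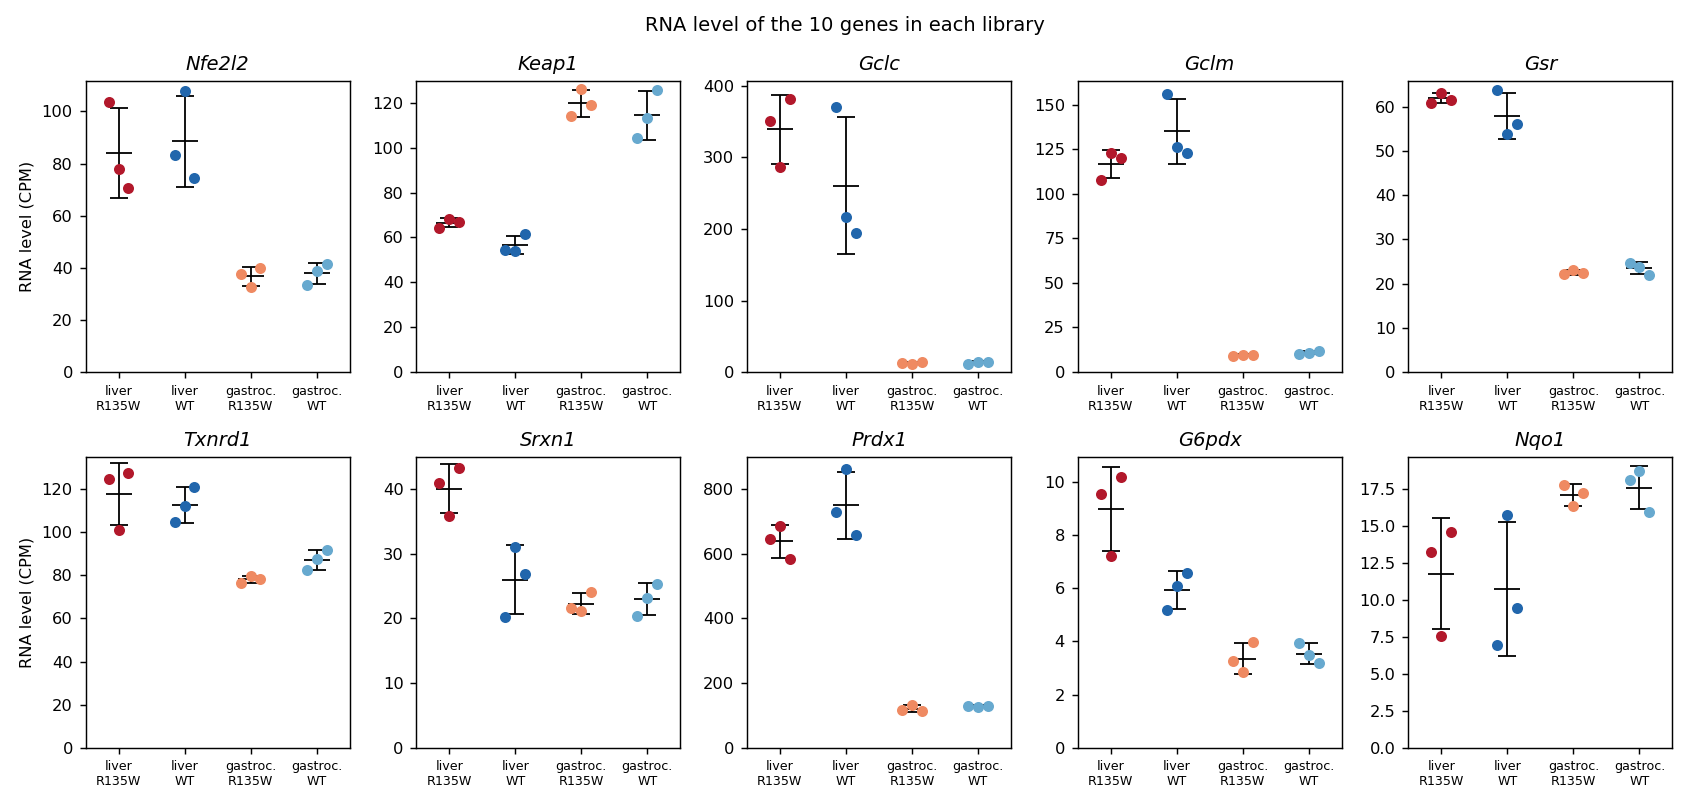
RNA level in CPM (vertical axis, linear, from 0) of each of the 10 genes in every library, by group; points are libraries, the horizontal mark is the group mean and the bar its SD (n = 3). Gclc, Gclm and Prdx1 stand far higher in liver than in gastrocnemius, Keap1 and Nqo1 stand lower in liver, and for Srxn1 and G6pdx the 3 R135W livers lie above the 3 WT livers.

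Srxn1 encodes sulfiredoxin, which repairs over-oxidised peroxiredoxins. Its level in liver was 41.0, 35.8 and 43.2 CPM in R135W animals 5, 7 and 12, against 20.3, 31.0 and 26.8 CPM in WT animals 6, 8 and 9. Every R135W liver lay above every WT liver, a 1.53-fold difference with a 95% interval of the log2 value from 0.26 to 0.98 (SE 0.16, adjusted p = 0.0818). The call depends on the test: Srxn1 passed in DESeq2 (0.61, adjusted p = 0.0227) and in a fit of all 12 libraries (0.62, adjusted p = 0.0179), and stayed at adjusted p of 0.0686 to 0.2001 in the other settings tried. The fit of all 12 libraries estimates a gene's spread over liver and the less variable muscle together. It called 1057 of all genes in liver, against 457 with the liver libraries alone. At a threshold of 0.1 Srxn1 was the 1 gene of the 10 that passed, against 5.67% of all genes.

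G6pdx, the X-linked gene of glucose-6-phosphate dehydrogenase, supplies the NADPH that glutathione and thioredoxin reductases use. Liver levels were 9.56, 7.21 and 10.2 CPM in R135W, against 5.17, 6.07 and 6.57 CPM in WT, so the groups again did not overlap. The fold change was 0.59 (SE 0.18, 95% interval 0.20 to 0.99, adjusted p = 0.124), and no setting called it, at adjusted p of 0.0519 to 0.304. These levels rest on 111 to 337 counts per library, the fewest of the 10 genes in liver. Its near-identical copy G6pd2 had 0 counts in all liver libraries.

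Macrophage markers moved with genotype in the same livers. Of 16 macrophage markers 13 rose in R135W, where 3.28% of all genes were called in either direction. Below 0, and not called, were 2 of the 16. These were Cd163, at 11.9 CPM in R135W and 16.2 CPM in WT, and Mertk, at 28.2 CPM in R135W and 31.0 CPM in WT. The summed level of the 16 markers was 1207 to 1275 CPM in R135W liver, against 470 to 694 CPM in WT liver, with no marker at 0. Summed neutrophil markers stood at 4.72 to 10.8 CPM in R135W, against 1.58 to 3.92 CPM in WT. T and NK cell markers stood at 8.15 to 8.49 CPM in R135W, against 5.39 to 6.34 CPM in WT, and B and plasma cell markers at 11.2 to 15.9 CPM in R135W, against 6.66 to 9.37 CPM in WT. Of these 3 lists edgeR called 0 markers: 0 of 3 tested for neutrophils (2 at an unadjusted p under 0.05, 1 in DESeq2, 0 in limma-voom), 0 of 8 for T and NK cells (3 unadjusted, 0 in DESeq2 and limma-voom) and 0 of 6 for B and plasma cells (4 unadjusted, 1 in DESeq2, 0 in limma-voom). Of 9 fibroblast and stellate cell markers 1 was called, Col1a1, higher in R135W, against 3.28% of all genes. The list as a whole did not rise, with 3 fold changes above 0, 6 below and a median of -0.06. Its sums overlapped, at 303 to 315 CPM in R135W and 256 to 311 CPM in WT. The summed hepatocyte markers did not overlap and were lower in R135W, at 100200 to 109700 CPM, against 117700 to 122700 CPM in WT, with 0 of 12 called in edgeR (3 unadjusted, 2 in DESeq2, 0 in limma-voom). The part of these cells in the Srxn1, G6pdx and Hmox1 values was not tested, and in bulk RNA more cells of a type and more RNA per cell cannot be told apart.

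The sensor pair showed no called difference in liver. Nfe2l2 stood at 104, 77.8 and 70.6 CPM in R135W, against 83.3, 108 and 74.4 CPM in WT, with overlapping groups and a fold change of -0.08 (SE 0.18, 95% interval -0.50 to 0.34, adjusted p = 0.861). Keap1 stood at 64.5, 68.4 and 67.03 CPM in R135W, against 54.6, 53.8 and 61.4 CPM in WT. All R135W livers lay above all WT livers for Keap1, yet its fold change of 0.23 did not pass (SE 0.11, 95% interval -0.01 to 0.47, adjusted p = 0.306).

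Glutathione is made by glutamate-cysteine ligase, whose catalytic subunit is encoded by Gclc and modifier subunit by Gclm, and is returned to its reduced form by glutathione reductase, encoded by Gsr. Gclc in liver stood at 350, 287 and 382 CPM in R135W, against 370, 217 and 194 CPM in WT. WT animal 6 was as high as the R135W livers, so the groups overlapped, and the fold change of 0.38 had an interval from -0.18 to 0.93 (SE 0.24, adjusted p = 0.470). Gclm went the other way: it stood at 108, 123 and 120 CPM in R135W, against 156, 126 and 123 CPM in WT. The R135W livers lay just below the WT livers for Gclm, at -0.22 (SE 0.13, 95% interval -0.52 to 0.09, adjusted p = 0.442). Gsr was close in both genotypes, at 60.9, 63.2 and 61.6 CPM in R135W, against 63.7, 53.7 and 56.1 CPM in WT, and its interval ran from -0.16 to 0.34 (fold change 0.09, SE 0.11, adjusted p = 0.722).

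Txnrd1, the cytosolic thioredoxin reductase, stood at 125, 101 and 128 CPM in R135W liver, against 105, 112 and 121 CPM in WT liver, and did not pass at 0.06 (SE 0.13, 95% interval -0.23 to 0.35, adjusted p = 0.856). Prdx1, a thioredoxin-dependent peroxidase and the most abundant of the 10 RNAs, stood at 647, 685 and 584 CPM in R135W, against 731, 863 and 657 CPM in WT. Its groups overlapped at -0.24 (SE 0.15, 95% interval -0.58 to 0.11, adjusted p = 0.461). Nqo1, the quinone reductase that is the customary reporter gene of NRF2, stood at 13.2, 7.54 and 14.6 CPM in R135W, against 6.99, 15.8 and 9.49 CPM in WT. Both genotypes held a low and a high liver, and the interval of its fold change was the widest of the 10, from -0.58 to 0.85 (0.14, SE 0.32, adjusted p = 0.867).

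Some of these genes varied between animals of a genotype by more than the median gene of at least 2 CPM. The coefficient of variation of Nqo1 in liver was 31.7% in R135W and 42.1% in WT, and that of Gclc was 36.8% in WT, where the median gene had 10.5% in R135W and 12.3% in WT. In gastrocnemius Nqo1 varied by 4.37% in R135W and 8.21% in WT, where the median gene had 7.3% in R135W and 6.4% in WT. R135W animal 12 had the highest level of the 6 livers for 4 of the 10 genes and WT animal 8 for 3.

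**Figure D2:**
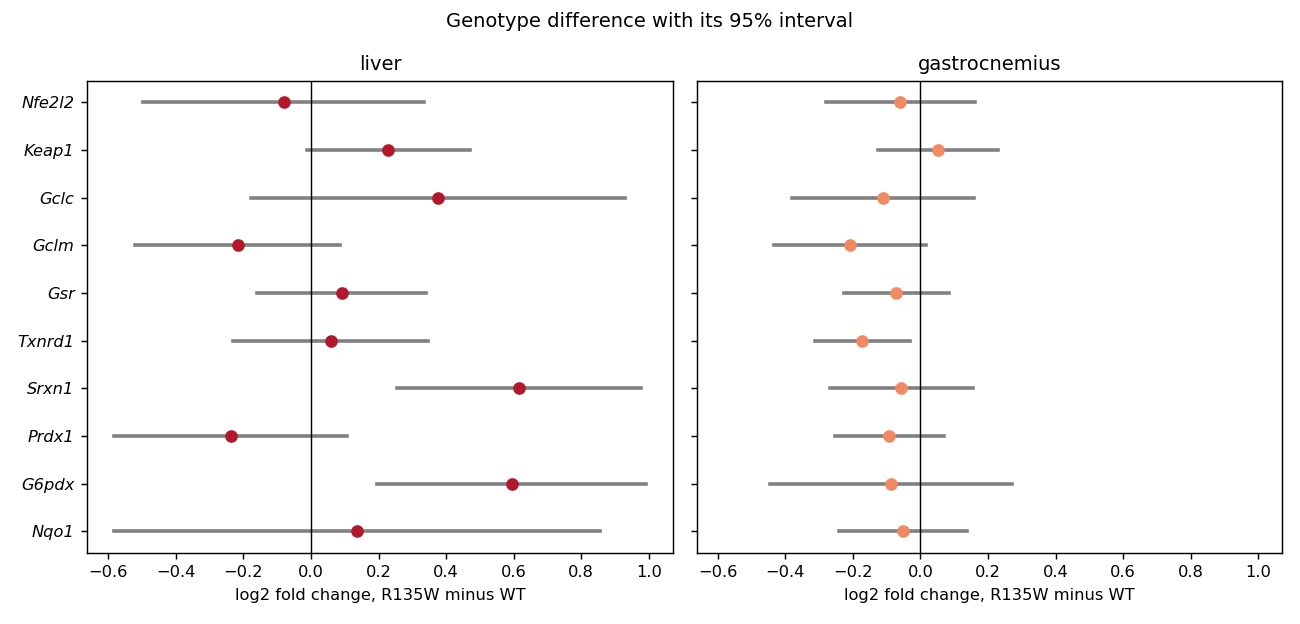
Log2 fold change of R135W minus WT (horizontal axis) for each of the 10 genes in liver (left) and gastrocnemius (right); points are the edgeR estimates and bars their 95% intervals, from 6 libraries per tissue. In liver the intervals of Srxn1 and G6pdx lie above 0, and in gastrocnemius that of Txnrd1 lies below 0, before adjustment for the number of genes tested.

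The same comparison was made in gastrocnemius. None of the 10 genes passed edgeR's test, against 0.875% of 13826 genes tested, and DESeq2 and limma-voom called 0 as well; at a threshold of 0.1 again 0 passed, against 1.43%. The fold changes lay between -0.21 and 0.05, 9 of the 10 below 0, with a median of -0.08 beside -0.00 over all genes. An unadjusted p under 0.05 was found for 1 gene, Txnrd1, against 11.5% of all genes. Txnrd1 stood at 76.4, 79.8 and 78.3 CPM in R135W muscle, against 82.5, 87.7 and 91.8 CPM in WT muscle, at -0.17 (SE 0.063, 95% interval -0.31 to -0.03, adjusted p = 0.319). Gclm stood at 8.95, 9.76 and 9.57 CPM in R135W, against 9.88, 10.8 and 11.8 CPM in WT, at -0.21 (SE 0.10, adjusted p = 0.467). For these 2 genes all R135W muscles lay below all WT muscles, 2 of 10 against 16.2% of all genes.

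The other 8 genes overlapped between the genotypes in muscle. Srxn1 stood at 21.6, 21.1 and 24.1 CPM in R135W, against 20.4, 23.1 and 25.3 CPM in WT, at -0.06 (SE 0.094, adjusted p = 0.880). G6pdx stood at 3.25, 2.84 and 3.98 CPM in R135W, against 3.94, 3.499 and 3.18 CPM in WT, at -0.09 (SE 0.16, adjusted p = 0.892). The separation that both showed in liver was not present in muscle. The 6 remaining genes, Nfe2l2, Keap1, Nqo1, Gclc, Gsr and Prdx1, had adjusted p of 0.688 to 0.881. Beside these values, 8 endothelial markers summed to 251 to 273 CPM in R135W muscle, against 197 to 215 CPM in WT muscle, and the hepatocyte markers to 297 to 446 CPM in R135W, against 530 to 712 CPM in WT. Of 7 tested endothelial markers edgeR called 1, Kdr, higher in R135W (5 at an unadjusted p under 0.05, 2 in DESeq2, 1 in limma-voom). Their fold changes were above 0 for 5 and below for 2. Of 6 tested hepatocyte markers edgeR called 1, Glul, lower in R135W (2 unadjusted, 1 in DESeq2, 1 in limma-voom). Of all genes 0.875% were called and 11.5% had an unadjusted p under 0.05. The part of these markers was not tested. Not every gene of the hepatocyte list is particular to liver. Its smallest difference, liver minus gastrocnemius, was 1.22 in R135W and 0.92 in WT animals, beside list medians of 12.2 and 14.6. These medians include Apoa1, Apob, Serpina1a, Fgb, Tat and Cps1, which were too low in muscle to be tested there. Those markers entered the fit of all 12 libraries through liver, so their direction was set by the filter. As some genes of the list are not particular to liver, its sums in muscle do not measure hepatocyte RNA there.

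Whether the genotype difference itself differed between tissues was tested as an interaction over the 12 libraries, with a common estimate of spread for both tissues. None of the 10 genes passed, against 0.13% of 15414 genes, and DESeq2 and limma-voom called 0 too, as did edgeR at a threshold of 0.1, against 0.285%; 2 of 10 had an unadjusted p under 0.05, against 9.95% of all genes. These were Srxn1, where the liver difference exceeded the muscle difference by 0.67 (SE 0.20, adjusted p = 0.261), and G6pdx, by 0.68 (SE 0.25, adjusted p = 0.382). For neither gene was the difference between tissues past the threshold.

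Tissue separated the 10 genes far more than genotype did. In R135W animals 8 genes were higher and 1 lower in liver than in gastrocnemius, and in WT animals 7 were higher and 2 lower. Such calls were made for 82.1% of 15414 genes in R135W animals (41% higher, 41.1% lower) and for 82.1% in WT animals (40.9% higher, 41.2% lower), so 9 of 10 in each genotype is close to the share of all genes. The median difference of the 10 genes, liver minus gastrocnemius, was 1.31 in R135W and 0.99 in WT animals, beside -0.00 over all genes in each.

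The glutathione synthesis pair differed most. Gclc stood at 287 to 382 CPM in R135W liver, against 11.04 to 14.6 CPM in R135W muscle, and at 194 to 370 CPM in WT liver, against 11.9 to 14.5 CPM in WT muscle. That is 26.9-fold in R135W animals (log2 4.75, adjusted p = 5.20e-10) and 19.3-fold in WT animals (4.27, adjusted p = 1.29e-09). Gclm was 12.4-fold higher in liver in R135W (3.63, adjusted p = 4.99e-12) and 12.5-fold in WT animals (3.64, adjusted p = 4.58e-12). Prdx1 followed, at 2.396 in R135W (adjusted p = 6.91e-10) and 2.55 in WT animals (adjusted p = 3.90e-10), and then Gsr, at 1.46 in R135W (adjusted p = 1.89e-09) and 1.30 in WT animals (adjusted p = 6.27e-09). Averaged over genotypes, muscle held 4.35% of the liver level of Gclc, 17.97% of that of Prdx1 and 38.5% of that of Gsr. The hepatocyte markers in muscle summed to 0.432% of their liver sum. Not all of them are particular to liver, as said above, and whether liver RNA entered the muscle libraries was not tested.

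**Figure D3:**
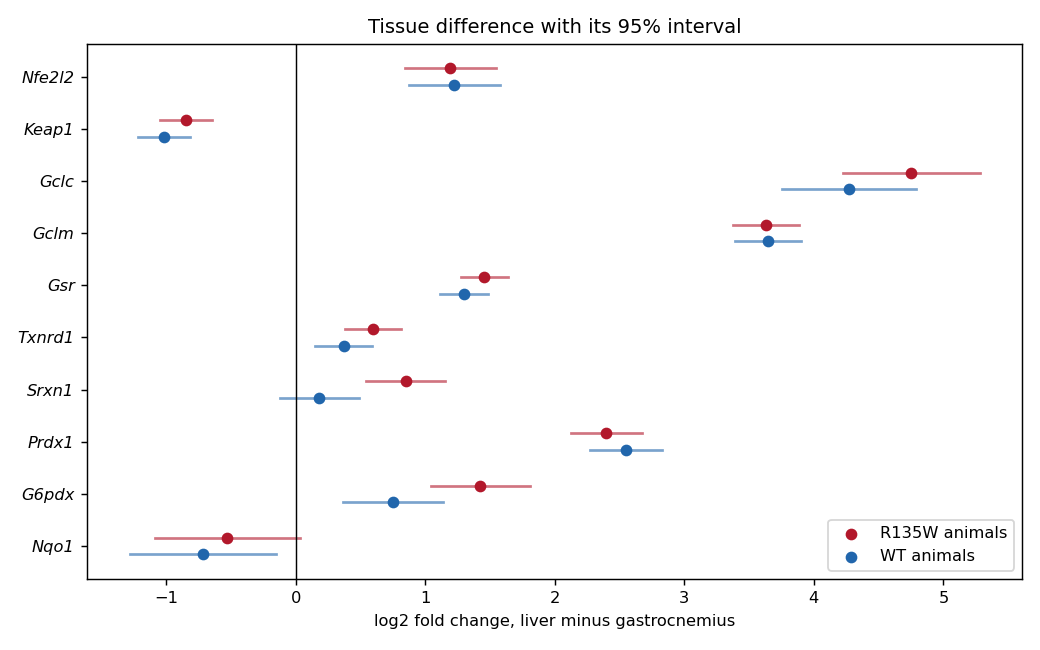
Log2 fold change of liver minus gastrocnemius (horizontal axis) for each of the 10 genes in R135W animals (upper point of each pair) and WT animals (lower point); bars are 95% intervals from the 12-library edgeR fit. Gclc and Gclm lie farthest to the right, at 3.63 to 4.75, Keap1 lies left of 0 in both genotypes, and for Srxn1 and G6pdx the R135W point lies right of the WT point.

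The regulator and its inhibitor went opposite ways between tissues. Nfe2l2 was higher in liver, by 1.19 in R135W (adjusted p = 1.35e-05) and 1.22 in WT animals (adjusted p = 1.08e-05), while Keap1 was lower in liver, at -0.85 in R135W (adjusted p = 1.32e-06) and -1.02 in WT animals (adjusted p = 2.10e-07). Keap1 stood at 114, 126 and 119 CPM in R135W muscle and 104, 114 and 126 CPM in WT muscle, above all 6 livers. Nfe2l2 stood at 37.7, 32.7 and 39.7 CPM in R135W muscle and 33.4, 38.7 and 41.5 CPM in WT muscle, below all 6 livers.

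Nqo1 was the target with less RNA in liver. It stood at 17.8, 16.3 and 17.3 CPM in R135W muscle and 18.1, 18.8 and 15.99 CPM in WT muscle, and every liver was lower, up to 15.8 CPM in WT animal 8. The difference was -0.53 in R135W animals, which did not pass (adjusted p = 0.0729), and -0.72 in WT animals, which did (adjusted p = 0.0219). With the animal as a block the R135W difference was called, at -0.58 (adjusted p = 0.0235), as it was in limma-voom (-0.55, adjusted p = 0.0482) and without animal 8 (-0.54, adjusted p = 0.0338). The WT call was lost without animal 6 (-0.47, adjusted p = 0.151) or animal 9 (-0.70, adjusted p = 0.0837).

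Txnrd1 was higher in liver by 0.59 in R135W (adjusted p = 9.68e-05) and 0.37 in WT animals (adjusted p = 0.00397). G6pdx was higher in liver by 1.42 in R135W (adjusted p = 4.97e-06) and 0.75 in WT animals (adjusted p = 0.00161). Srxn1 was higher in liver by 0.85 in R135W animals (adjusted p = 8.12e-05) and did not pass in WT animals, at 0.18 (adjusted p = 0.248). As the interaction above shows, these tissue differences of G6pdx and Srxn1 were not shown to differ between genotypes.

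Levels can be set against each other between genes only per length, here CPM per kilobase of exon. In R135W liver the order was Prdx1 at 451, Gclc at 99.1, Gclm at 56.3, Nfe2l2 at 34, Txnrd1 at 29.3, Gsr at 23.2, Keap1 at 14.9, Srxn1 at 14.2, Nqo1 at 7.60 and G6pdx at 3.44 CPM per kilobase. Neighbours whose libraries overlapped were Nfe2l2 with Txnrd1 and Keap1 with Srxn1. WT liver had the same order, and there Gclc (76.0) overlapped with Gclm (65.2), Nfe2l2 (35.9) with Txnrd1 (28.0), and Srxn1 (9.25) with Nqo1 (6.93).

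In gastrocnemius the order was different below Prdx1. In R135W muscle Prdx1 at 85.6 was followed by Keap1 at 26.8, Txnrd1 at 19.5, Nfe2l2 at 14.9, Nqo1 at 11.04, Gsr at 8.44, Srxn1 at 7.91, Gclm at 4.55, Gclc at 3.68 and G6pdx at 1.28 CPM per kilobase. WT muscle kept this order, with Prdx1 at 90.5, Keap1 at 25.6 and Gclc at 3.93. Gsr and Srxn1 overlapped in both genotypes. Gclc was thus second in liver and second to last in muscle.

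Ratios within a library show the same pattern without a scale between libraries. Nfe2l2 over Keap1, per kilobase, was 2.91, 2.06 and 1.91 in R135W liver and 2.76, 3.63 and 2.19 in WT liver, against 0.598, 0.469 and 0.604 in R135W muscle and 0.580, 0.618 and 0.596 in WT muscle. Every liver held more Nfe2l2 than Keap1 RNA per kilobase and every muscle less. Gclc over Gclm was 1.97, 1.41 and 1.93 in R135W liver, against 1.44, 1.04 and 0.953 in WT liver, and 0.684 to 0.921 in R135W muscle, against 0.729 to 0.791 in WT muscle. The R135W value of animal 7 lay below the highest WT liver, so the genotypes overlapped for this ratio.

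**Figure D4:**
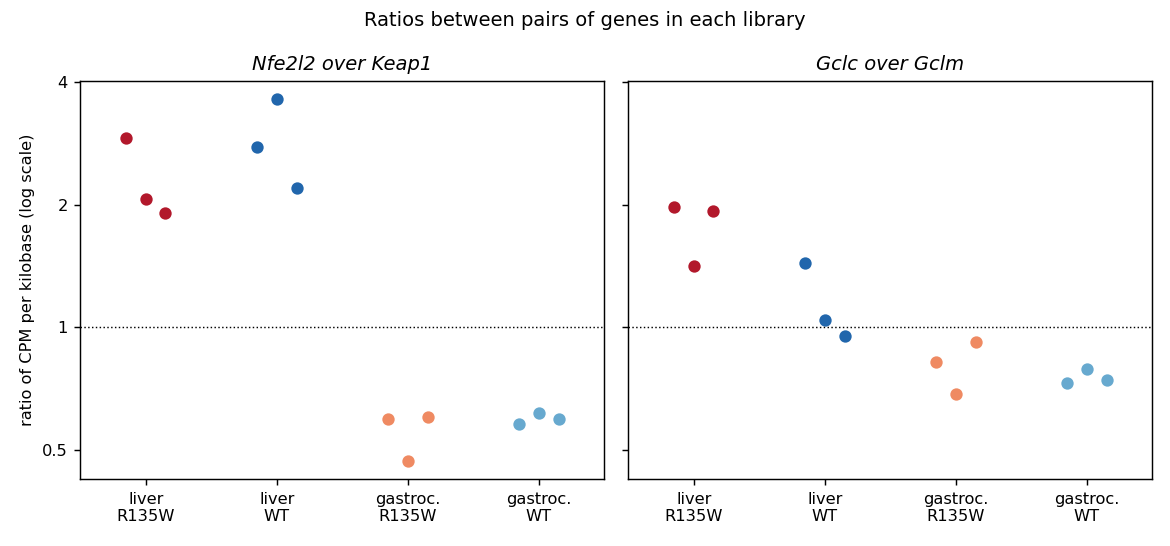
Ratio of CPM per kilobase (vertical axis, log scale) of Nfe2l2 over Keap1 (left) and Gclc over Gclm (right) in each library, by group; points are libraries and the dotted line marks a ratio of 1. Nfe2l2 over Keap1 lies above 1 in all 6 livers and below 1 in all 6 muscles, while Gclc over Gclm crosses 1 within WT liver.

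Genes whose pattern was most like that of Nqo1 and Nfe2l2 were taken by the smallest root mean square difference in log2 CPM over the 12 libraries, after removing each gene's mean, among 8977 genes of at least 10 CPM. Nearest to Nqo1 were Hspb8 (0.18), Kdm6a (0.19), Got1 (0.20), Dlg1 (0.22) and 4933426M11Rik (0.22). Nearest to Nfe2l2 were Gas5 (0.13), Miip (0.13), Mien1 (0.14), Galt (0.14) and Zfand2b (0.15). The 12 libraries share 6 animals and 2 tissues. None of the other members is among the nearest genes. G6pdx, at group means of 3.36 to 8.99 CPM, was under the limit of 10 CPM and was not compared.

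The pathway around the 10 genes was read from 3 wider lists, 10 further regulators of NRF2, 30 further targets and 18 other antioxidant enzymes. In liver 2 of the 56 tested genes of these lists passed, against 3.28% of all genes, and both are further targets. Hmox1, the heme oxygenase that opens heme to biliverdin, iron and carbon monoxide, stood at 35.4, 27.4 and 30.3 CPM in R135W, against 13.9, 15.1 and 14.4 CPM in WT. It rose by 1.10 (SE 0.13, adjusted p = 0.00671), in all 13 settings tried. Macrophages, whose markers rose in the same livers, also express Hmox1. Adh7, an alcohol dehydrogenase that oxidises retinol, stood at 23.2, 17.2 and 17.5 CPM in R135W, against 31.5, 32.7 and 30.02 CPM in WT, and fell by 0.71 (SE 0.14, adjusted p = 0.0340). Adh7 lost its call with age as a covariate (adjusted p = 0.0533) and without any of R135W 7 (0.124), R135W 12 (0.0858), WT 6 (0.0706), WT 8 (0.110) and WT 9 (0.102). Medians in liver were -0.16 for the regulators, 0.09 for the further targets and -0.13 for the other antioxidant enzymes, beside -0.01 over all genes, and 11 of the 56 genes had an unadjusted p under 0.05, against 17.6% of all genes.

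In gastrocnemius 0 of the 50 tested genes of the wider lists passed in edgeR, against 0.875% of all genes, and 4 had an unadjusted p under 0.05, against 11.5% of all genes. DESeq2 called 1 and limma-voom 0. Medians were -0.04 for the regulators, -0.04 for the further targets and -0.03 for the other antioxidant enzymes. Hmox1 stood at 3.97, 3.48 and 3.56 CPM in R135W muscle, against 3.70, 3.75 and 3.76 CPM in WT muscle, at -0.04 (SE 0.13, adjusted p = 0.947).

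Between tissues the wider lists were read against the 82.1% of all genes called in each genotype, about as many higher as lower in liver (41% and 41.1% in R135W, 40.9% and 41.2% in WT animals). Of the 10 regulators 1 was higher and 7 lower in liver in R135W animals, and 2 were higher and 6 lower in WT animals, so the 8 called in each genotype are close to that share. Their medians were -0.83 in R135W and -0.74 in WT animals, beside -0.00 over all genes. The ligase scaffold gene Cul3 was lower in liver, at -2.60 in R135W and -2.43 in WT animals, as was Nfe2l1, the related factor NRF1, at -2.60 in R135W and -2.58 in WT animals. Gsk3b, a kinase that marks NRF2 for another ubiquitin ligase, was lower, at -1.54 in R135W and -1.44 in WT animals. Cul3 stood at 42.6, 38.9 and 45.6 CPM in R135W liver, against 264, 253 and 251 CPM in R135W muscle, and at 42.0, 51.5 and 53.4 CPM in WT liver, against 268, 266 and 259 CPM in WT muscle. Its direction between tissues was that of Keap1, its partner in the ligase.

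Of the further targets 24 of 28 were higher in liver in R135W animals, against 41% of all genes, and 24 of 28 in WT animals, against 40.9%. Their medians were 3.40 in R135W and 3.28 in WT animals, beside -0.00 over all genes. Gsta1, Gsta2, Gstm3, Abcc2, Abcc3 and Adh7 were too low in muscle to be tested in gastrocnemius alone. There 22 genes of the list were tested. These low genes entered the fit of all 12 libraries through liver, so their direction was set by the filter. They add to both the counts and the medians, which were not taken over the 22 genes alone. The comparison with all genes is therefore not read as a result about these targets. Among the targets tested in both tissues, the ferritin light chain Ftl1 was higher in liver, at 4.83 in R135W and 4.74 in WT animals. Its value is uncertain because near-identical copies exist. The export pump gene Abcc3, which entered through liver, was at 10.03 in R135W and 10.06 in WT animals and under 1 CPM in every muscle. Abcc4, another export pump, was lower in liver in both genotypes, at -1.99 in R135W and -2.42 in WT animals. Of the 18 other antioxidant enzymes 12 were higher and 4 lower in liver in each genotype, 16 called where 82.1% of all genes were. Among them were Prdx4 of the endoplasmic reticulum, higher by 4.26 in R135W and 4.46 in WT animals, and mitochondrial Sod2, lower at -0.96 in R135W and -0.74 in WT animals.

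By position (mm10), Nfe2l2 lies on chromosome 2 from 75675519 to 75704641 and Srxn1 on chromosome 2 from 152105524 to 152111376. Keap1 lies on chromosome 9 from 21229730 to 21239332 and Gclc on chromosome 9 from 77754535 to 77794489. Nqo1 lies on chromosome 8 from 107388225 to 107403205 and Gsr on chromosome 8 from 33653238 to 33698162. Gclm lies on chromosome 3 from 122245557 to 122267215, Txnrd1 on chromosome 10 from 82833951 to 82897724, G6pdx on chromosome X from 74409486 to 74429161 and Prdx1 on chromosome 4 from 116685599 to 116700000. Counts are summed over the exons of each gene, 2 in Srxn1 and up to 17 in Txnrd1. Prdx1 shares 1.13% of its exon length with AV051173, and the other 9 genes share none.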

How the data were processed

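Poly(A) RNA was sequenced as read pairs from 12 libraries. Per the file headers, the deposited values are raw counts per gene, made by the authors with featureCounts 1.5.2 over exons of the UCSC mm10 annotation, ignoring strand, using primary alignments, and giving a fragment to each gene that it touches. The submitters' processing notes name STAR 2.4.0. Reads of an antisense or overlapping gene can therefore enter a gene's count. The deposited counts carry no normalisation.

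Genotype was tested on the 6 libraries of a tissue with edgeR 4.0.16 in R 4.3.3 (TMM, filterByExpr by group, quasi-likelihood test); p-values were adjusted by Benjamini-Hochberg across every gene tested, and 0.05 was the threshold. Tissue differences and the interaction came from a fit of all 12 libraries in 4 groups, which share an estimate of each gene's spread. The spread was not alike in the tissues. The median gene of at least 2 CPM had a coefficient of variation of 10.5% in R135W and 12.3% in WT liver. In muscle it had 7.3% in R135W and 6.4% in WT. An SE is the log2 value over the root of its F statistic. Alternatives were DESeq2 1.42.0 and limma-voom (limma 3.58.1), RLE factors, other filters, age, a joint fit, a threshold of 0.1, the animal as a block, and leaving out libraries. Of these tests, only edgeR's genotype test within each tissue was run on simulated counts.

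Liver and muscle libraries are paired because the labels give them the same animal numbers, with matching ages; deviations from group means correlated at -0.0019 to 0.0819 within an animal and -0.0732 to 0.0653 between animals. Pairs of replicates in a group were compared by chi-squared over genes, which divided by its degrees of freedom spanned 41.7 to 118 for liver pairs and 8.07 to 17.8 for muscle pairs. These values hold the spread between animals as well as counting noise.

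The 10 genes, the lists and the tests were chosen with earlier results of these data known. Named were the 10 genes in every comparison, Mars2, up to 4 called genes per direction of the wider lists by smallest p, 5 genes most like Nqo1 and Nfe2l2 each, and marker lists beside results. Promoter sequences are from RefSeq (GRCm38.p6).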

Additional observations from a re-analysis of the deposited data

Results flagged for a closer look

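Hmox1 was singled out because its genotype difference was larger in liver than in gastrocnemius by the interaction test, by 1.13 on the log2 scale (SE 0.16, edgeR adjusted p = 0.0184). It stood at 35.4, 27.4 and 30.3 CPM in R135W liver, against 13.9, 15.1 and 14.4 CPM in WT liver. In muscle it stood at 3.97, 3.48 and 3.56 CPM in R135W, against 3.70, 3.75 and 3.76 CPM in WT. The value stayed between 1.08 and 1.17 when any animal was left out, but the call was lost in each of these 6 fits, at adjusted p of 0.0816 without animal 5, 0.0564 without 7, 0.117 without 12, 0.0873 without 6, 0.1195 without 8 and 0.138 without 9. It was also lost in limma-voom (adjusted p = 0.0946) and held with the animal as a block (adjusted p = 0.0413). Macrophage markers stood higher in the same R135W livers, and their part in this difference was not tested.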

How the results depend on the processing

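Counts of called genes depended on the test more than directions did. Of the 10 genes in liver, DESeq2, the fit of all 12 libraries and a threshold of 0.1 each called 1, Srxn1, where edgeR called 0. Of the wider lists in liver 4 were called in DESeq2, 8 in the fit of all 12 libraries, 1 with age as a covariate and 4 at a threshold of 0.1, against 2. In gastrocnemius RLE factors, DESeq2, no filter and a threshold of 0.1 each called 1 of the wider lists, against 0. For the interaction DESeq2 called 2 of them and limma-voom 0, against 1. Over all genes, liver calls numbered 781 in DESeq2, 1057 in the fit of all 12 libraries, 274 with age and 790 at 0.1, against 457; gastrocnemius calls 274 in DESeq2, 20 in the fit of all 12 libraries and 198 at 0.1, against 121; and interaction calls 184 in DESeq2, 7 in limma-voom and 44 at 0.1, against 20. The cause was not tested.

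Without 1 liver library, 84 to 285 genes were called in liver (266 without R135W 5, 114 without R135W 7, 263 without R135W 12, 285 without WT 6, 104 without WT 8, 84 without WT 9), and 1 to 3 of the wider lists. In gastrocnemius 3 to 106 genes were called (3 without WT 8, 9 without WT 9, 21 without R135W 7, 38 without WT 6, 47 without R135W 12). Without 1 animal 1 to 7 interaction calls were made, 0 to 1 in the wider lists. Fewer samples enter these fits. Of the 10 genes 0 were called in each such fit in liver, gastrocnemius and the interaction, 9 to 10 for tissue in R135W and 8 to 9 in WT animals. Fold changes near 0 changed sign there: in liver Nfe2l2 (-0.26 to 0.0782) and Nqo1 (-0.10 to 0.50), in gastrocnemius Nfe2l2 (-0.15 to 0.0172), Keap1 (-0.0165 to 0.13), Srxn1 (-0.14 to 0.0243) and G6pdx (-0.22 to 0.0216), and in the interaction Nfe2l2 (-0.21 to 0.14), Nqo1 (-0.0646 to 0.51) and Gclm (-0.15 to 0.16).

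With the animal as a replicate block, the pairing changed the call of Nqo1 between tissues in R135W animals (-0.58, adjusted p = 0.0235) and of no other of the 10 genes; 10 were then called in R135W and 9 in WT animals, and 0 for the interaction, where 16 of all genes were called. The motif core followed by a fixed A was in 3.04% of promoters. RLE factors and DESeq2 moved the median of all genes by under 0.1.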

Other observations

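Bach1 and Gsk3b, from the list of NRF2 regulators, were picked out after their values were seen, because the genotypes did not overlap in either tissue, as 23.7% of all genes did not in liver and 16.2% in gastrocnemius. The share of all genes without overlap in both tissues at once was not counted. Gclm, Adh7 and Sod2 also stood lower in R135W without overlap in both tissues. In muscle Adh7 was too low to be tested, at 6 to 8 counts in R135W and 9 to 12 in WT. Sod2 in muscle was apart only by 319.1 CPM, the highest R135W value, against 319.7 CPM, the lowest WT value. Glrx did not overlap in either tissue but stood lower in R135W liver and higher in R135W muscle. Bach1, a repressor of Hmox1 and other genes with antioxidant response elements, stood at 30.1, 34.04 and 34.4 CPM in R135W liver, against 38.2, 48.8 and 49.2 CPM in WT liver, at -0.47 (SE 0.13, edgeR adjusted p = 0.101). In gastrocnemius it stood at 38.0, 37.0 and 42.1 CPM in R135W, against 43.8, 47.1 and 47.3 CPM in WT, at -0.25 (SE 0.070, adjusted p = 0.184). Gsk3b was at -0.32 in liver (SE 0.11, adjusted p = 0.176) and -0.23 in gastrocnemius (SE 0.070, adjusted p = 0.220). None of the values of Bach1 and Gsk3b passed the threshold. Both tissues come from the same 6 animals, so the tissues are not independent of each other.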
